A study of Rattus norvegicus with 4 samples.

Results

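The dystroglycan complex genes were followed in RNA-Seq data of S16 cells, an immortalized rat Schwann cell line. They were chosen by symbol from the deposited expression tables as Dag1, Dmd, Utrn, Drp2, Sgca, Sgcb, Sgcd, Sgce and Dtna, and all 9 were found among the 30708 listed genes. The cells were unmodified S16 cells of a single line in both groups, and no treatment was labelled. One population was at passage 9 and one at passage 39, and the series' design text counts these as independent biological replicates. Each population gave 2 libraries that are labelled technical replicates, so n is 2 populations and any effect of passage cannot be told apart from other differences between the populations. The mutant S16 lines that the study compared with such cells were not analysed here.

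Dystroglycan is made as a single precursor and cleaved into an extracellular alpha subunit and a transmembrane beta subunit. The sugar chains of the alpha subunit bind laminin and other basal lamina proteins that carry laminin G domains, and the beta subunit binds dystrophin or its relatives, which reach the actin cytoskeleton. The sarcoglycans are transmembrane proteins that join this complex, and dystrobrevins and syntrophins attach to it from the cytoplasm. In Schwann cells dystroglycan faces the basal lamina on the outer surface of the myelin unit, where it is known for complexes with utrophin, with the short dystrophin isoform Dp116 and, through dystrophin-related protein 2, with periaxin.

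In S16 cells, Dag1 was the most abundant of the 9 transcripts and Dtna the least, and 7 of the 9 averaged 1 RPKM or more in both populations (RPKM, the reads of a gene divided by its length in kilobases and by the library total in units of 1000000). Utrn exceeded Dmd in RPKM in every library, and Sgce was the leading sarcoglycan. No member differed 2-fold between the passages. The largest contrast among the libraries was instead between the first and the second technical replicate: 8 of the 9 members, all but Sgcb, were lower in both second replicates than in both first ones, by up to 0.53 on the log2(RPKM + 1) scale. Of all genes averaging 1 RPKM or more, 30.5% were lower and 57.2% higher in both second replicates, and 46.3% were lower once the libraries were rescaled to a common sum. Values are listed below in the order first and second replicate of passage 9, then first and second replicate of passage 39. Means are over the 2 populations after averaging the libraries of each, with the SD between the populations.

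The libraries held 34.2 to 41.4 M reads (M, 1000000), recovered from the RPKM values, of which 79.4% to 81.5% lay on listed genes. The paper states fewer reads per cell line, from technical replicates that were pooled and spread over lanes. The recovered totals, on which the read counts and intervals here rest, were not reconciled with that statement. Libraries with the same replicate number resembled each other more closely than the labelled technical replicates of a passage. Over the 11025 genes averaging 1 RPKM or more, the SD of the log2 difference was 0.080 and 0.082 between passages within a number, against 0.339 and 0.334 within a passage. In the same order, 1 and 1 of these genes differed 2-fold between passages, and 132 and 121 within a passage. The libraries thus grouped by replicate number and not by labelled passage, which goes against the label of technical replicates. The labels were used as given and a crossing of them was not tested. Were the numbers in truth the populations, the differences and SDs given by passage would be those between technical replicates, and the differences by number those between populations. The Schwann cell identity given by the labels was seen in the 10 Schwann cell markers, all averaging 1 RPKM or more. Of 9 skeletal muscle markers, only Cav3 reached a mean of 1 RPKM and Myog was listed at 0 in all 4 libraries. Myod1 averaged 0.837 RPKM and was at 0.261, 1.36, 0.165 and 1.56 RPKM, so it passed 1 RPKM in both second replicates. Of the neuron markers, 0 of 6 reached it, and their summed level was 0 to 0.0351 RPKM per library. Of 6 fibroblast markers 2 reached it, Col1a1 and Pdgfra, the latter at 4.73, 5.89, 4.62 and 6.16 RPKM. Thy1 was at 0 and Col1a2 at 0.339 RPKM, while Col1a1 ranked 1 at 3588 RPKM.

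Dag1 encodes the dystroglycan precursor itself, whose subunits together cross the membrane and bind the basal lamina. It was listed at 195, 152, 192 and 151 RPKM, which is 41620, 27606, 34023 and 32141 reads over a recovered length of 5169 bp. Both first replicates lay above both second ones, with a ratio of the first to the second of 1.27. Its mean of 173 ± 1.13 RPKM (SD, n = 2) placed it at rank 249 of the listed genes. The difference of second minus first replicates was -0.35 at passage 9 and -0.34 at passage 39 on the log2(RPKM + 1) scale. Between passages the difference was -0.013, and the ratio of passage 39 to passage 9 had a 95% counting interval of 0.974 to 1.00 in the first replicates and 0.979 to 1.01 in the second. Among all other genes averaging 1 RPKM or more, the 3 with the most similar values in the 4 libraries were Gas6, LOC313641 and Gpm6b. Gas6, a secreted ligand of TAM receptor kinases, came nearest, with 187, 162, 187 and 158 RPKM and no library more than 0.089 from Dag1 on the log2(RPKM + 1) scale.

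**Figure D1:**
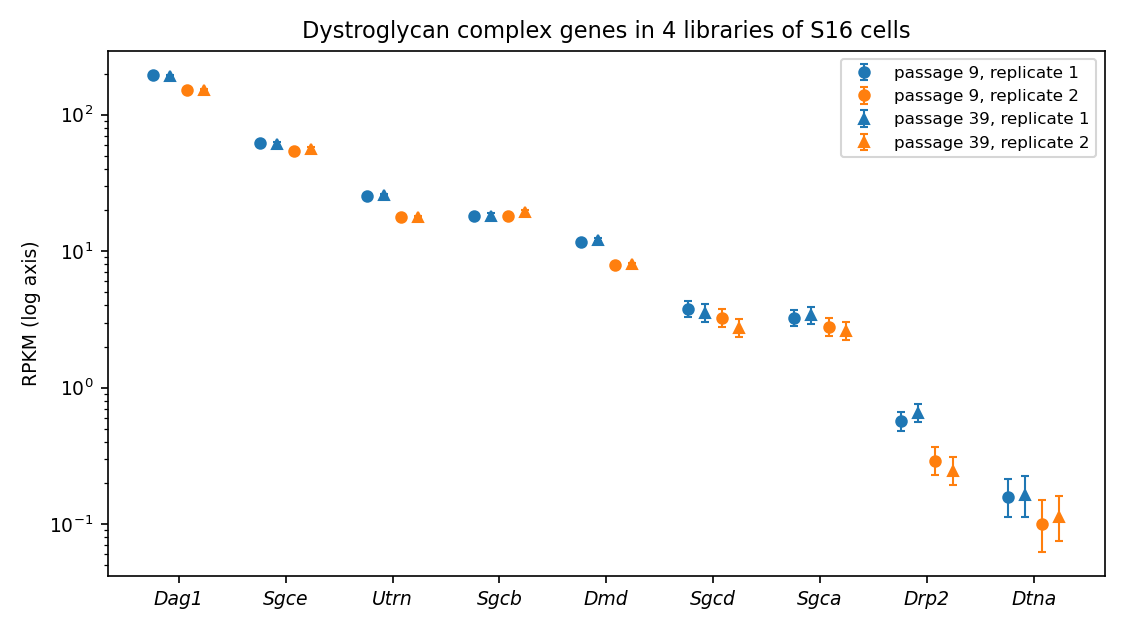
RPKM on a log axis of the 9 dystroglycan complex genes, ordered by their mean, with circles for passage 9, triangles for passage 39, blue for first and orange for second technical replicates. Bars are 95% exact Clopper-Pearson intervals of the reads and cover counting error only. Levels run from 195 RPKM for Dag1 to 0.1001 RPKM for Dtna, and the orange points lie below the blue ones for every gene but Sgcb.

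The dystrophin family was represented by Utrn, Dmd and Drp2. Utrophin is the ubiquitous relative of dystrophin, and Utrn had the highest RPKM of them. Utrn was listed at 25.5, 17.8, 25.7 and 17.8 RPKM, from 19211, 11363, 16063 and 13321 reads, with a mean of 21.7 ± 0.102 RPKM (SD, n = 2). Dmd, the dystrophin gene, was listed at 11.7, 7.94, 12.1 and 8.02 RPKM, from 6771, 3880, 5768 and 4588 reads, with a mean of 9.95 ± 0.150 RPKM (SD, n = 2). In both genes the values of the first replicates and of the second replicates formed 2 separate pairs, and the pairs held 1 library of each passage. Drp2, whose product links periaxin to dystroglycan in myelinating Schwann cells, was far lower. It was listed at 0.566, 0.293, 0.656 and 0.246 RPKM, from 169, 74, 162 and 73 reads, with a mean of 0.440 ± 0.0154 RPKM (SD, n = 2). Its 95% counting intervals were 0.484 to 0.659 and 0.230 to 0.367 RPKM at passage 9, and 0.559 to 0.765 and 0.193 to 0.310 RPKM at passage 39, so they did not overlap between replicate numbers in either passage.

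Ratios within a library do not depend on how the libraries are scaled. The RPKM ratio of Utrn to Dmd was 2.17, 2.24, 2.13 and 2.22 in the 4 libraries. In RPKM, Utrn thus stood above Dmd by nearly the same factor in every library, although both genes differed by replicate number. The ratio of Utrn to Drp2 was 45.0, 60.7, 39.2 and 72.2, higher in both second replicates than in both first ones. Of the summed RPKM of these genes, Utrn made up 66.9% to 68.3%, Dmd 30.5% to 31.4% and Drp2 0.946% to 1.70%. The sum itself was 37.8 and 38.5 RPKM in the first replicates and 26.0 and 26.1 RPKM in the second.

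A single RPKM value was deposited for Dmd, while the gene is known for several promoters, so full-length dystrophin, Dp116 and Dp71 cannot be told apart in these values. The RPKM of Dmd is per the recovered length of 13928 bp, which would understate the level of a shorter isoform such as Dp116. The order of Utrn above Dmd is therefore one of RPKM values and not of transcript numbers. To show how far apart the starts lie, the 250 bases before the first RefSeq start and before one of the last are printed here, together with the window before the first Drp2 start, all on the plus strand of the GRCr8 assembly (the authors aligned to an older build, rn5). The Dmd starts are 2.07 Mb apart. Capitals mark ACAAAG or ACAAT on either strand, the only motifs searched. They are part of the letters bound by SOX10, a transcription factor of Schwann cells. The paper's own SOX10 consensus takes in more letter runs, so the search here was narrower.
Dmd, chrX:51205836-51206085: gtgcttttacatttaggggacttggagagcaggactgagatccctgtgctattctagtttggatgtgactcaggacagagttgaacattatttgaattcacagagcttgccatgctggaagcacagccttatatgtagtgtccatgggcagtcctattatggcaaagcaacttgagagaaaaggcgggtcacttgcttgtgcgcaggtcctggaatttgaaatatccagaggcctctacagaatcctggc
Dmd, chrX:53278763-53279012: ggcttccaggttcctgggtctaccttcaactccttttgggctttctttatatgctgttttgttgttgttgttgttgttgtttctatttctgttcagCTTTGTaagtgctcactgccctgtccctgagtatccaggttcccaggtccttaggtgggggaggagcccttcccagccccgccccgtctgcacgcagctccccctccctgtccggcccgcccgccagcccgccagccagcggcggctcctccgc
Drp2, chrX:101900761-101901010: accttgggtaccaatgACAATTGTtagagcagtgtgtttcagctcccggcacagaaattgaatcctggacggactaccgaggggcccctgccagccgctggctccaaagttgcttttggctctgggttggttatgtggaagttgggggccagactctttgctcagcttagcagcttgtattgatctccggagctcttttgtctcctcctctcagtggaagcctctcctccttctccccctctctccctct
The upstream Dmd window held no match, the downstream one held 1 on the minus strand, and in the Drp2 window the forward and reverse matches of ACAAT overlapped. RefSeq windows were at hand for 8 of the 9 members (none for Dag1). Of their 11 windows, 4 held a match, and so did 40.6% of all 33469 rat windows of that length. Among these 4, the downstream Dmd windows overlap and hold the same match, so the matching windows are not all separate places. A match describes letters and not binding. The counts are for the searched motifs and not for the paper's wider SOX10 consensus. The upstream Dmd window, without a match here, does hold letters of that wider set.

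The sarcoglycans Sgca, Sgcb, Sgcd and Sgce spanned a wide range of levels. Sgce, epsilon-sarcoglycan, is the widely expressed relative of the muscle protein alpha-sarcoglycan. It was listed at 62.3, 54.2, 61.0 and 56.0 RPKM, from 3820, 2818, 3094 and 3406 reads, with a mean of 58.4 ± 0.152 RPKM (SD, n = 2). Sgcb, beta-sarcoglycan, was listed at 18.0, 18.0, 18.2 and 19.4 RPKM, from 2765, 2341, 2311 and 2964 reads, with a mean of 18.4 ± 0.581 RPKM (SD, n = 2). Sgcb was thus the member whose libraries lay closest together, with the highest 1.08 times the lowest, and the second replicate of passage 39 stood above the other 3. Sgcd, delta-sarcoglycan, was listed at 3.77, 3.23, 3.54 and 2.74 RPKM, from 237, 172, 184 and 171 reads, with a mean of 3.32 ± 0.254 RPKM (SD, n = 2). Sgca, alpha-sarcoglycan, was listed at 3.25, 2.79, 3.38 and 2.62 RPKM, from 228, 166, 196 and 182 reads, with a mean of 3.01 ± 0.0181 RPKM (SD, n = 2). In both of these genes the second replicates were below the first without overlap. At passage 9, however, the ratio of second to first had a counting interval that held 1, at 0.699 to 1.05 for Sgcd and 0.699 to 1.05 for Sgca.

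Of the summed RPKM of the 4 sarcoglycans, Sgce made up 69.3% to 71.3%, Sgcb 20.6% to 24.1%, Sgcd 3.39% to 4.32% and Sgca 3.24% to 3.93%. Within libraries the ratio of Sgce to Sgca was 19.2, 19.4, 18.0 and 21.4. The ratio of Sgce to Sgcb was 3.46, 3.02, 3.35 and 2.88, lower in both second replicates. The window before the start of Sgcd is shown because it held both searched motifs, in the same marking as above and read along the minus strand of GRCr8.
Sgcd, chr10:32254941-32255190: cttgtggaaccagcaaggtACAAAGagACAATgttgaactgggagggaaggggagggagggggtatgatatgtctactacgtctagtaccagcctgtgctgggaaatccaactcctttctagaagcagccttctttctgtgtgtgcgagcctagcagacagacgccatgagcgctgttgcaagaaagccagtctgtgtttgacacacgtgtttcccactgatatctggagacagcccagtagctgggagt
The windows of Sgca, Sgcb, Sgce and Utrn held neither searched motif, which says only that these letters were absent from them. The paper's wider SOX10 consensus was not searched over all windows. At least the Sgca and Utrn windows do hold a letter run of it, ACAAG.

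The level of Sgca has a limit of its own. In the RefSeq annotation of GRCr8 the span of Sgca overlaps those of Col1a1 and Hils1. Reads were counted without regard to strand, so strand did not separate reads of overlapping genes from its own. According to the methods, HTSeq otherwise kept its default parameters. Whether reads shared by such genes were set aside or added to Sgca cannot be seen from the deposited values. Col1a1, a collagen gene, was listed at 3344, 3877, 3359 and 3771 RPKM, and the RPKM of Sgca was 0.0973%, 0.0721%, 0.101% and 0.0694% of it. Col1a1 was higher in the second replicates by 0.19 on the log2(RPKM + 1) scale, whereas Sgca was lower by 0.22. The part of Col1a1 reads in the value of Sgca was not tested. Skeletal muscle markers, which would accompany Sgca in muscle, summed to 1.36 RPKM on average in the first replicates and 6.67 RPKM in the second, within 1.34 to 6.72 RPKM over the 4 libraries, and Cav3, the caveolin of muscle, was at 0.749, 4.33, 0.690 and 4.13 RPKM. Their part in the values of the complex was not tested.

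Dtna encodes alpha-dystrobrevin, the cytoplasmic partner of dystrophin and the syntrophins. It was listed at 0.158, 0.1001, 0.163 and 0.113 RPKM, from 41, 22, 35 and 29 reads, with a mean of 0.134 ± 0.00622 RPKM (SD, n = 2) at rank 13635. Both second replicates were below both first ones. The counting interval of the ratio of second to first was 0.359 to 1.09 at passage 9 and 0.407 to 1.16 at passage 39, so at this depth a difference was not detectable within either passage.

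Ordered by mean RPKM, which is per length, the members ran Dag1, Sgce, Utrn, Sgcb, Dmd, Sgcd, Sgca, Drp2 and Dtna. The ranges over the 4 libraries overlapped for 2 pairs of neighbours. Utrn exceeded Sgcb in 2 of 4 libraries, the first replicates, with a ratio of the means of 1.18. Sgcd exceeded Sgca in 4 of 4 libraries, with a ratio of the means of 1.10, but their ranges overlapped. The other neighbours kept their order without overlap, with ratios of the means of 1.85 for Sgcb to Dmd, 2.69 for Sgce to Utrn, 2.96 for Dag1 to Sgce, 3.00 for Dmd to Sgcd, 3.30 for Drp2 to Dtna and 6.84 for Sgca to Drp2.

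The comparison of passage 39 with passage 9 asks whether older S16 cells carried different levels of these transcripts. No member changed 2-fold, and the differences ran from -0.12 for Sgcd to 0.061 for Sgcb on the log2(RPKM + 1) scale with a median of 0.0092. Over all genes averaging 1 RPKM or more, 1 of 11025 (0.00907%) differed 2-fold by passage, so a count of 0 among the members is what the background gives too. Sgcb was the member whose libraries did not overlap between passages, with passage 39 above passage 9, and 6.21% of all genes averaging 1 RPKM or more had passages that did not overlap. Under a rescaling of the libraries to a common sum, Sgcb overlapped as well. Within the first replicates the counting interval of the ratio of passage 39 to passage 9 held 1 for 9 of 9 members. Within the second replicates it held 1 for 8 of 9, and the exception was Sgcb, with a ratio of 1.08 and an interval of 1.02 to 1.14. Over all genes averaging 1 RPKM or more the interval left out 1 for 6.26% in the first and 8.86% in the second replicates. With 1 population per passage these differences have no replicate check, and no p-values were computed.

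**Figure D2:**
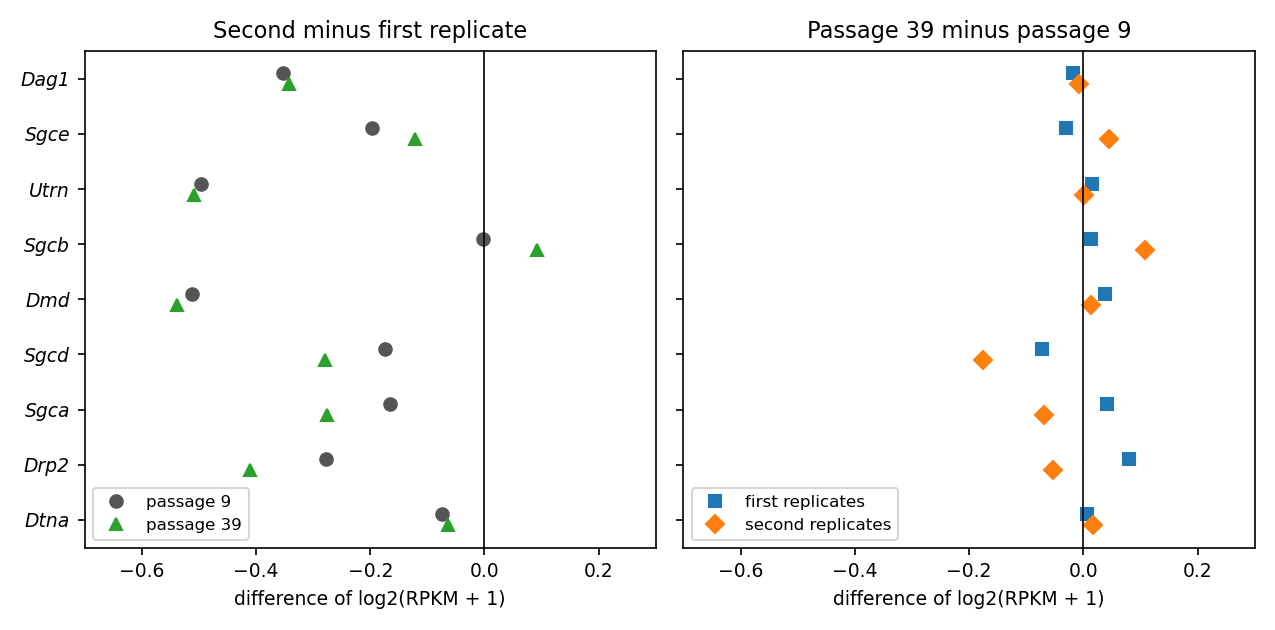
Differences of log2(RPKM + 1) for the 9 genes, second minus first technical replicate within each passage on the left and passage 39 minus passage 9 within each replicate number on the right, on the same horizontal scale. On the left the points reach -0.54 for Dmd, and on the right they stay between -0.18 and 0.11.

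The same genes differed by technical replicate number. All of Dag1, Dmd, Utrn, Drp2, Sgca, Sgcd, Sgce and Dtna were lower in both second replicates than in both first ones, and Sgcb overlapped. Among the 7 members averaging 1 RPKM or more this held for 6, beside the 30.5% of all such genes that were lower and the 57.2% that were higher. These shares depend on the scaling of the libraries, since the deposited RPKM values sum to more in the second replicates. They became 46.3% lower and 37.7% higher after rescaling to a common sum, with 9 of 9 members lower, and 39.4% lower and 45.8% higher with median-ratio scaling, with 8 of 9 members lower. The median difference of these genes moved from 0.10 as deposited to -0.026 with the common sum and 0.027 with the median ratio. The members' median was -0.23 as deposited, -0.40 with the common sum (-0.34 where that sum was set to the mean of the deposited sums) and -0.30 with the median ratio, below the median of all genes each time.

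The largest differences by replicate number were those of Dmd at -0.53, Utrn at -0.50, Dag1 at -0.35 and Drp2 at -0.34, in each case the mean of second minus first over the passages on the log2(RPKM + 1) scale. Sgcd was at -0.23, Sgca at -0.22, Sgce at -0.16 and Dtna at -0.069. Sgcb was at 0.045 as deposited but at -0.098 with the common sum and -0.040 with median-ratio scaling, so its direction depended on the scaling. No member reached 2-fold on this scale, and 1.1% of all genes averaging 1 RPKM or more did. The scale understates the change of genes near 0, and in plain RPKM Drp2 was 2.27 times as high in the first replicates (0.611 RPKM) as in the second (0.269 RPKM). At passage 9 the counting interval of the ratio of second to first excluded 1 for 5 of 9 members, which were Dag1, Dmd, Utrn, Drp2 and Sgce. At passage 39 it excluded 1 for 8 of 9, all but Dtna, with Sgcb above 1 at a ratio of 1.07. Over all genes averaging 1 RPKM or more it excluded 1 for 72% at passage 9 and 70.6% at passage 39. For 8 of 9 members the difference by replicate number was larger than that by passage, Sgcb being the exception, and the same held for 91.2% of all genes averaging 1 RPKM or more.

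The difference by replicate number also moved with gene length, and several members are long. The median difference was 0.28 in the shortest of 20 length bins and -0.22 in the longest. Of the 9 members, 6 were longer than the median recovered length of 2621.5 bp, with Dmd at 13928 bp and Utrn at 18224 bp. Set against the median of the 500 genes nearest in length, Dmd was still lower by 0.30 and Utrn by 0.28 in the second replicates. The shorter members moved further from genes of their length, with -0.44 for Sgcd (1519 bp), -0.40 for Sgca (1693 bp) and -0.38 for Sgce (1481 bp). Dag1 was at -0.36 and Drp2 at -0.24 on this measure. Dtna at -0.0026 and Sgcb at 0.00094 lay on the median of genes of their length. For Dtna and Drp2, both below 1 RPKM, the log2(RPKM + 1) scale flattens the difference, while the genes of like length averaged 1 RPKM or more. With a pseudocount of 0.1 RPKM their differences by replicate number, not set against length, were -0.34 for Dtna and -0.94 for Drp2. The place of Dtna on the median therefore depends on the scale. Whether length itself takes part in these differences was not tested.

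**Figure D3:**
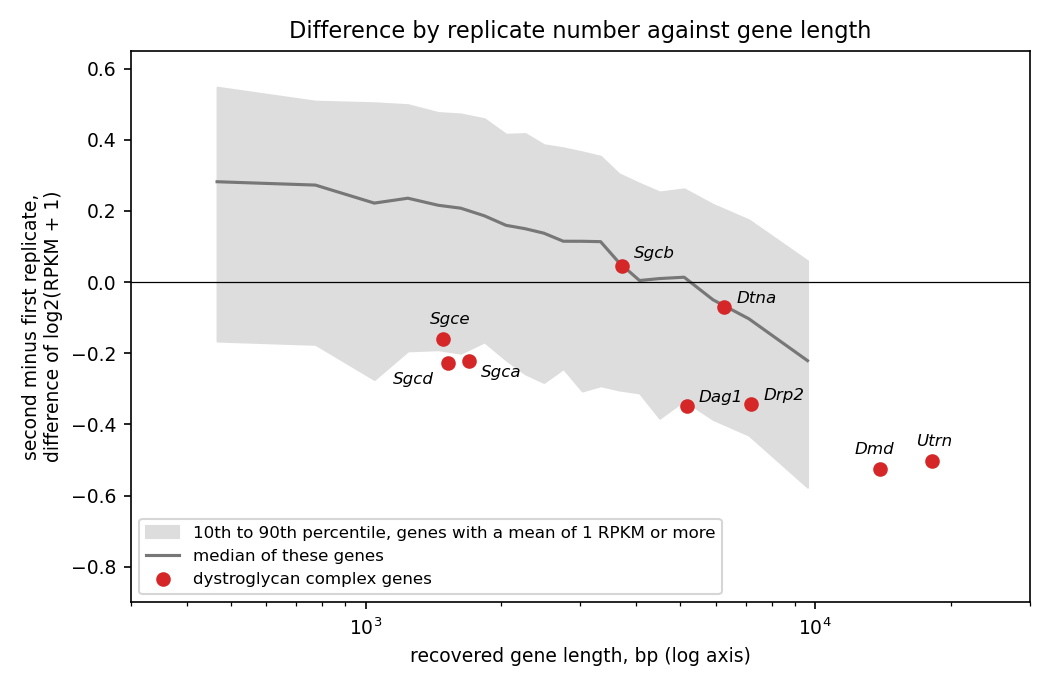
Second minus first replicate, as the mean difference of log2(RPKM + 1) over the passages, against recovered gene length on a log axis for the 9 genes (red), with the median (line) and the 10th to 90th percentile (grey) of genes averaging 1 RPKM or more in 20 length bins, drawn at the median length of each bin. Sgcb and Dtna lie on the line, and the other 7 lie below the median of genes of their length.

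The partners of the complex were described from lists. Of 9 other complex members, 5 averaged 1 RPKM or more. Among these, 3 were lower and 1 was higher in both second replicates as deposited, and 4 were lower and 1 was higher under each of the other scalings. Syntrophins are adaptor proteins that bind dystrophin and dystrobrevin. Of these, Sntb1 was listed at 15.5, 7.04, 15.6 and 7.65 RPKM, a difference of -0.99, and Sntb2 at 4.98, 2.57, 4.64 and 2.74 RPKM, a difference of -0.67. Both were lower in both second replicates than in both first ones. Sspn, sarcospan, a small membrane protein that binds the sarcoglycans, was at 7.04, 5.83, 7.67 and 6.20 RPKM. Dtnb had a mean of 1.07 RPKM, and Sgcz, Sntg1 and Sntg2 were listed at 0 in all 4 libraries.

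Periaxin, which binds Drp2 in the myelin unit, was more abundant than its partner. Prx was listed at 18.7, 13.3, 19.5 and 13.01 RPKM, with a mean of 16.1 ± 0.194 RPKM (SD, n = 2) and a difference of second minus first of -0.51. The ratio of Prx to Drp2 was 33.0, 45.4, 29.7 and 52.8 in the 4 libraries. Both genes were lower in the second replicates, and the ratio was higher there.

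The extracellular ligands were led by laminin chains. Lama4, the alpha-4 chain, was listed at 223, 169, 222 and 171 RPKM, and Lama2, the alpha-2 chain of the Schwann cell basal lamina, at 181, 110.2, 182 and 109.9 RPKM. The ratio of Lama4 to Dag1 stayed between 1.11 and 1.15. The ratio of Lama2 to Dag1 was 0.932 and 0.948 in the first replicates and 0.724 and 0.726 in the second, so Lama2 was lower in the second replicates by more than Dag1. Agrn, agrin, was at 51.8, 36.8, 51.1 and 36.6 RPKM. Lama5 was higher in the second replicates, by 0.64, which made 3 of 4 ligands averaging 1 RPKM or more lower and 1 higher as deposited and under both other scalings. Egflam, which encodes the dystroglycan ligand pikachurin, had a mean of 0.872 RPKM and was at 1.76, 0.0858, 1.59 and 0.0564 RPKM, from 314, 13, 235 and 10 reads. Of the 10 ligands, 9 were listed.

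Of the genes that build the sugar chains on alpha-dystroglycan, 15 of 18 averaged 1 RPKM or more. As deposited, 6 of these were lower and 8 higher in both second replicates, and the split turned to 8 lower and 3 higher with the common sum and was 7 lower and 6 higher with the median ratio. Their median difference was 0.094 as deposited, close to that of all genes. Large, the glycosyltransferase that extends the laminin-binding chain, was at 41.8, 39.7, 41.3 and 39.0 RPKM. Pomgnt1, another gene of this list, was at 56.5, 49.2, 55.5 and 47.9 RPKM. No list had a gene averaging 1 RPKM or more that differed 2-fold by passage.

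Mmp2 encodes a gelatinase that is known to cleave beta-dystroglycan. It was listed at 66.7, 16.6, 67.7 and 16.2 RPKM, a difference by replicate number of -1.97, while the passages differed by 0.0098. Mmp9, the related gelatinase, rested on 2, 3, 1 and 4 reads. The integrins that bind laminin beside dystroglycan were all lower in the second replicates where they averaged 1 RPKM or more, 4 of 4 as deposited and under both other scalings. Itgb1 was at 488, 432, 491 and 438 RPKM, Itga6 at 158, 115, 159 and 116 RPKM, and Itga7 at 20.5, 17.6, 20.04 and 17.8 RPKM. Among the Schwann cell markers 7 of 10 were lower and 3 were higher in both second replicates as deposited, a split that became 9 to 1 with the common sum and 8 to 1 with the median ratio. S100b, a calcium-binding protein gene of Schwann cells, was at 85.7, 31.8, 86.6 and 32.8 RPKM, more than 2-fold lower in the second replicates.

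**Figure D4:**
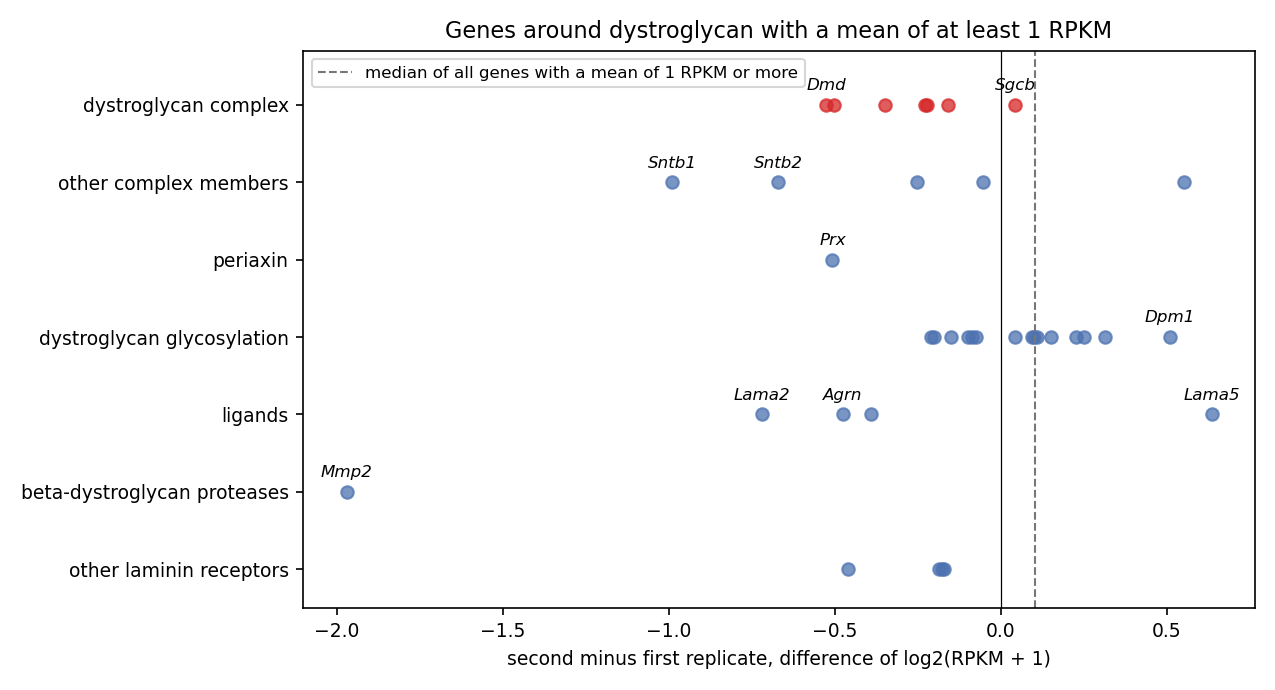
Second minus first technical replicate, as the mean difference of log2(RPKM + 1) over the passages, for each gene averaging 1 RPKM or more among the dystroglycan complex genes (red) and, in blue, the other complex members, periaxin, the glycosylation genes, the ligands, the proteases and the other laminin receptors, 1 point per gene. Cell type markers are not drawn. The dashed line is the median of all genes with such a mean, at 0.10, and the drawn points run from -1.97 for Mmp2 to 0.64 for Lama5.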

How the data were processed

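The 4 RNA-Seq libraries were made from poly(A) RNA of unmodified S16 cells. According to the methods, the authors sequenced single-end reads, aligned them with STAR to the rat genome (rn5), discarded reads without a unique position and assigned the rest to genes with HTSeq, ignoring strand. Per the labels, FastQC was also run. The authors deposited RPKM values, 1 per gene symbol. How counts became RPKM is not given in the sources used here, and the methods name Ensembl where the files point to RefSeq.

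Groups were taken from the labelled passage. Libraries of a passage were averaged first, and differences were taken on the log2(RPKM + 1) scale. The difference by replicate number is the mean over the passages of second minus first. Backgrounds cover the 11025 genes averaging 1 RPKM or more. No tests were run. A count test on recovered reads was not run, since a passage holds 1 population. Library totals, gene lengths and whole reads were recovered from ratios of the RPKM values (tolerance 0.0001), for all 18114 genes above 0 in 2 or more libraries. Each set of reads is the smallest that fits its values, so a common factor can stay hidden. The recovery was tested on simulated data. Intervals (95%, Clopper-Pearson) cover counting error only.

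The members and lists were chosen with earlier results of these data known. All members were named, and from each list the 3 highest genes, those that differed 2-fold and Prx. Some genes that this rule covers are not reported here. Sntb2, Dtnb, Sgcz, Sntg1, Sntg2, Lama5, Dpm1, Myog, Thy1 and Egflam, and the searched motifs, were chosen after their values or sequences were seen. Promoter windows and gene overlaps came from RefSeq (GRCr8), for names and sequence only. Python 3.11.15, numpy 2.4.6, pandas 2.3.3, scipy 1.17.1 and matplotlib 3.10.9 were used.

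The alternatives were 2 other scalings, a pseudocount of 0.1 RPKM, minimums of 0.1 and 5 RPKM, each library or population left out and a replicate block. A common sum at the mean of the deposited sums, the setting against genes of like length and the averages by replicate number were added after seeing the data.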

Additional observations from a re-analysis of the deposited data

Results flagged for a closer look

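Sgcb had 1 library far from the other 3. The second replicate of passage 39, at 19.4 RPKM, lay above 18.0, 18.0 and 18.2 RPKM, and its gap to the nearest of them was 0.858 of the whole range. Among 31 genes examined in this way, 1 was so marked. For independent libraries the cut-off would mark about 1 in 20, or 1.55 of 31. The libraries grouped in pairs by replicate number, and a gene split into such pairs cannot be marked. That rate therefore does not apply here, and the mark is a description only. Without that library the difference of Sgcb by passage was 0.015 in place of 0.061 on the log2(RPKM + 1) scale, and the other library of passage 39 was still above both libraries of passage 9.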

How the results depend on the processing

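No member differed 2-fold by passage or by replicate number under any alternative tried, all of which kept a pseudocount. With the replicate block, which pairs libraries of the same number, the count by passage was likewise 0. Drp2 came close by replicate number, at -0.94 with the pseudocount of 0.1 RPKM. In plain RPKM, without a pseudocount, Drp2 was 2.27 times as high in the first replicates as in the second. The 7 members with both population means at the minimum became 8 with the common sum of 1000000, which also raises every value (Drp2 from 0.440 to 1.35) and so lowers the minimum and the pseudocount in effect, and stayed 7 with a common sum set to the mean of the deposited sums, an alternative added after seeing the data. It was 9 at a lower minimum (0.1 RPKM) and 5 at a higher one (5 RPKM), and 7 without each library in turn. The count of members lower in both second replicates, 8 as reported, was 4 with a minimum of 5 RPKM, which only 5 members pass. The count of members whose passages did not overlap, 1 as reported, was 0 with either common sum. The difference by replicate number kept its sign in at least 8 of 9 members under every alternative, with Sgcb the exception under every scaling and without the second replicate of passage 39. The difference by passage kept its sign in 9 of 9 members under every scaling, the pseudocount of 0.1 RPKM and the replicate block. Without one library it kept its sign in 4 to 7 of 9, and the values ran from -0.27 to 0.31, since an unpaired replicate then enters 1 passage only. The share of all genes that differed 2-fold by replicate number, 1.1% as deposited, was 2.21% with the common sum of 1000000, 1.41% with that at the mean deposited sum and 1.30% with the median ratio. For Drp2 and Dtna, with 22 to 169 reads per library, depth limits the values, and 1 population per passage limits every comparison.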

Other observations

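Among genes averaging 1 RPKM or more, those closest to Drp2 over the 4 libraries were Homez, Ccdc157 and LOC100910802, with largest differences from Drp2 of 0.50, 0.56 and 0.56 on the log2(RPKM + 1) scale. Drp2 itself lies below that minimum, so genes at its own level were not compared. Homez was listed at 1.20, 0.8288, 1.32 and 0.718 RPKM, lower in both second replicates as Drp2 was. For Dag1, after Gas6, the next closest genes LOC313641 and Gpm6b differed from it by at most 0.15 each.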
